A study of Mus musculus with 6 samples.

Results

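The regions described here are the YTHDC1 peaks of C2C12 cells that lay in short coding exons. LACE-seq crosslinks a protein to its RNAs with UV light, pulls the complexes down with an antibody and sequences cDNAs whose synthesis stopped at the crosslinked base, and a peak is a stretch of 20-nt bins where such reads piled up. A peak of replicate 1 was a member if it overlapped a peak of replicate 2 on the same strand by 1 nt or more, if its centre lay in the coding sequence of a protein-coding gene, and if the longest annotated exon holding the centre was under 400 nt. Of 29087 peaks that both C2C12 libraries shared, 8097 lay in coding sequence and 2705 met the rule, among 178779 peaks in all libraries of the series together. These 2705 peaks, called short-exon peaks below, made up 9.30% of the shared peaks (95% exact Clopper-Pearson interval 8.97 to 9.64%) and lay in 2391 exons of 1136 genes. In single libraries, without the demand for a partner, 5945 peaks of replicate 1 and 5498 peaks of replicate 2 lay in short coding exons.

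C2C12 is an established mouse myoblast line, and the 2 libraries (bio1 and bio2 in the labels) came from cells labelled WT, grown in DMEM with 10% fetal bovine serum and crosslinked at 400 mJ. The labels call them biological replicates while the study's text speaks of technical ones, so their spread may be technical. The other 4 libraries (B1T1, B1T2, B2T1 and B2T2) came from ASC-48 hr, satellite cells that had been cultured for 48 hr after isolation from mice, crosslinked at the same dose and precipitated with the same YTHDC1 antibody. No antibody control and no RNA level was analysed here, so a count of peaks on a gene reflects how much of its RNA the cells held as well as how much was bound. Among myoblast genes, Des held 10 shared peaks on the strand of its RNA, Cdh15 held 3, Myf5 and Chrna1 held 2 each, and Myod1 and Myog held 0. Of genes that mark other cells, Pecam1 held 1 and Ptprc, Epcam and Adipoq held 0.

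YTHDC1 is the nuclear reader of N6-methyladenosine (m6A) and is known for acting on exon inclusion and on the export of methylated mRNAs. Coding sequence in mouse genes is mostly cut into short internal exons, while m6A itself is known to concentrate in long internal exons and near stop codons and to be sparse beside splice junctions, where the exon junction complex sits. The position of a YTHDC1 peak within a short exon, and its distance from the exon's ends, are therefore the measures to which most of the description below is given.

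Sequences of members on which the results below turn are shown here on the RNA strand, 5′ to 3′, as 30 nt around the peak's centre from mouse assembly NCBIM37 (mm9). The first set shows members with many reads that hold the word ATGCC, in capitals, a word more frequent at short-exon peaks than in the rest of their exons.
Sfswap, chr5:130007356-130007385, plus strand: cttctggttttcggctATGCCtgcaagttg
Rpl19, chr11:97890716-97890745, plus strand: gaagggtactgccaatgctcggATGCCtga
Eef2, chr10:80644016-80644045, plus strand: ttcatgatgtgaccctgcatgctgATGCCa
Col3a1, chr1:45384656-45384685, plus strand: gtatcaaaggcccagctggcATGCCtggat
Lgals3, chr14:47999716-47999745, plus strand: ctttctttatagcttaacgATGCCttagct

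The second set shows members whose bins ran over an exon's start or end, with the bases of the exon in capitals and those of the neighbouring intron in lower case. In Gnas, Hspg2, Vim and Tuba1c the lower case part is the end of the intron before the exon, and in Fn1 it is the beginning of the intron after it.
Gnas, chr2:174171136-174171165, plus strand: ccctctctcctcagATGGCTGCGCACCATC
Hspg2, chr4:137070516-137070545, plus strand: gtccttgcagGTGTGAATGTGACGATGCCC
Vim, chr2:13502256-13502285, plus strand: tctttttatagGATTTCTCTGCCTCTGCCA
Tuba1c, chr15:98864516-98864545, plus strand: tttccacagCGTGAGTGCATCTCCATCCAC
Fn1, chr1:71688516-71688545, minus strand: CTTCTGCACAGACCATGCGGgtgagtgtcc

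The third set shows the 4 members of a single exon of Sfr1, exon 2, with the 15 nt that all of them hold in capitals.
Sfr1 peak A, chr19:47807216-47807245, plus strand: CGACTTCACCTGCCGctcctcagaccagtg
Sfr1 peak B, chr19:47807256-47807285, plus strand: atcaccacCGACTTCACCTGCCGttcctca
Sfr1 peak C, chr19:47807356-47807385, plus strand: ccacCGACTTCACCTGCCGctcctcagccc
Sfr1 peak D, chr19:47807396-47807425, plus strand: caccatcaccccCGACTTCACCTGCCGctc

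Most short-exon peaks were a single bin in an internal exon. Of the 2705 peaks, 2367 were 20 nt wide, 269 were 40 nt, 58 were 60 nt, 7 were 80 nt and 4 were 100 nt. Internal exons held 2346 peaks (86.7%), first exons 191, last exons 114 and genes of a single exon 54. Over all 2705 members the exons had a median length of 171 nt (quartiles 127 and 232 nt) and ran from 39 to 399 nt. An exon rarely held more than 1 peak: 2123 exons held 1, 228 held 2, 35 held 3, 4 held 4 and 1 held 5. Members were spread over the coding sequence much as their exons were, with 35.4%, 33.9% and 30.8% of peaks in its first, middle and last part of equal length, against 34.7%, 34.7% and 30.6% of the bins of the same exons.

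The reads behind a peak were few. In replicate 1 the mean reads per bin of short-exon peaks ran from 6 to 28 with a median of 8 and quartiles of 7 and 10. In replicate 2 they ran from 6 to 27 with a median of 8 and quartiles of 6.67 and 10. The lowest value that either library listed for any peak was 6, so a short-exon peak with the median height lay 2 reads above the floor of the lists. The log2 difference between replicate 1 and replicate 2 had a median of 0 and an SD of 0.43, and 2660 members (98.3%) agreed within 2-fold. Across the members the log2 values of both replicates correlated with a Pearson r of 0.49 and a Spearman rho of 0.40, which describe peaks that had to pass the floor in both libraries and share their genes. The corresponding values over the 5392 shared peaks in coding exons of 400 nt or more (long-exon peaks) were 0.48 and 0.40. Peaks with at least 10 reads per bin in both libraries made up 14.3% of short-exon peaks and 16.7% of long-exon peaks, a difference of -2.44 percentage points (95% Newcombe interval -4.07 to -0.76). Of the peaks that a single library had in short coding exons, 45.5% of those of replicate 1 had a partner in replicate 2 and 49.3% of those of replicate 2 had one in replicate 1, and the shares for long exons were 52.3% and 49.9%. All such intervals cover counting error over peaks only, since reads of one library are not independent molecules where duplicates stay in. At the limit of the rule the heights ran together: the 37 peaks in exons of 390 to 399 nt had medians of 8 and 8 reads in replicates 1 and 2, and the 34 peaks in exons of 400 to 409 nt had medians of 7.17 and 8.

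**Figure D1:**
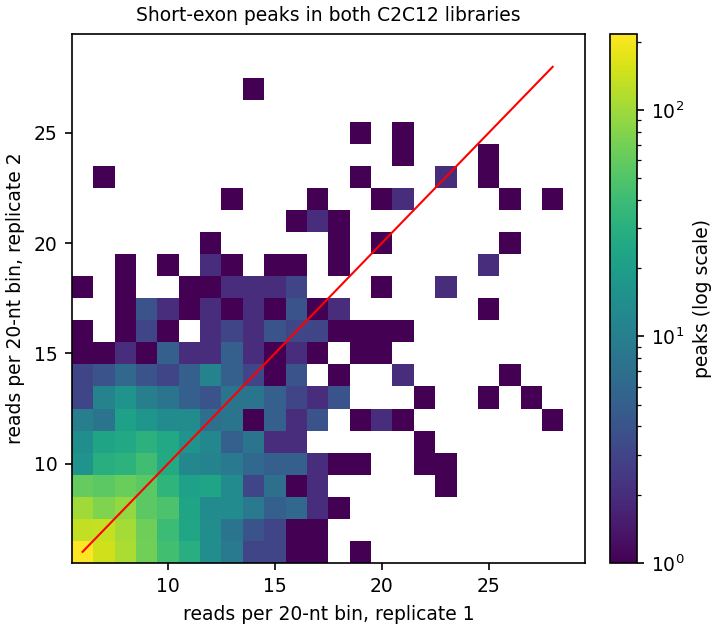
Reads per 20-nt bin of each of the 2705 short-exon peaks in replicate 1 (x axis) and replicate 2 (y axis), coloured by the number of peaks on a log scale, with the line of equal values in red. Most peaks sit at 6 to 10 reads in both libraries, and the highest reached 28 in replicate 1 and 27 in replicate 2.

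Short coding exons held fewer peaks per kb than long ones of the same genes. Over the 809 genes with a coding peak and with both short and long internal coding exons, short exons held 848 shared peaks in 1504.54 kb (0.564 per kb) and long exons 1561 in 1208.72 kb (1.29 per kb). The ratio was 0.436 (95% interval of a ratio of Poisson counts 0.401 to 0.475). In all peaks of a single library it was 0.450 (0.425 to 0.477) for replicate 1 and 0.397 (0.374 to 0.420) for replicate 2. Each of those values covers the genes with a coding peak in its own library, a set other than the 809. Both libraries thus showed the same direction with a spread far smaller than the difference between the exon classes. With each gene compared with itself (a Mantel-Haenszel ratio over genes, chosen after seeing the data) the ratio was 0.349, and 538 genes had the lower density in their short exons while 155 had the higher. The density rose with length below the limit as well, from 0.405 per kb in exons under 100 nt to 0.523 at 100 to 149 nt, 0.645 at 150 to 199 nt, 0.583 at 200 to 299 nt and 0.696 at 300 to 399 nt. It then was 1.28 per kb at 400 to 999 nt and 1.30 at 1000 nt and over. The intervals of neighbouring classes between 150 and 399 nt overlapped, so their order was not resolved, while that of 300 to 399 nt (0.535 to 0.890) lay below that of 400 to 999 nt (1.17 to 1.39).

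**Figure D2:**
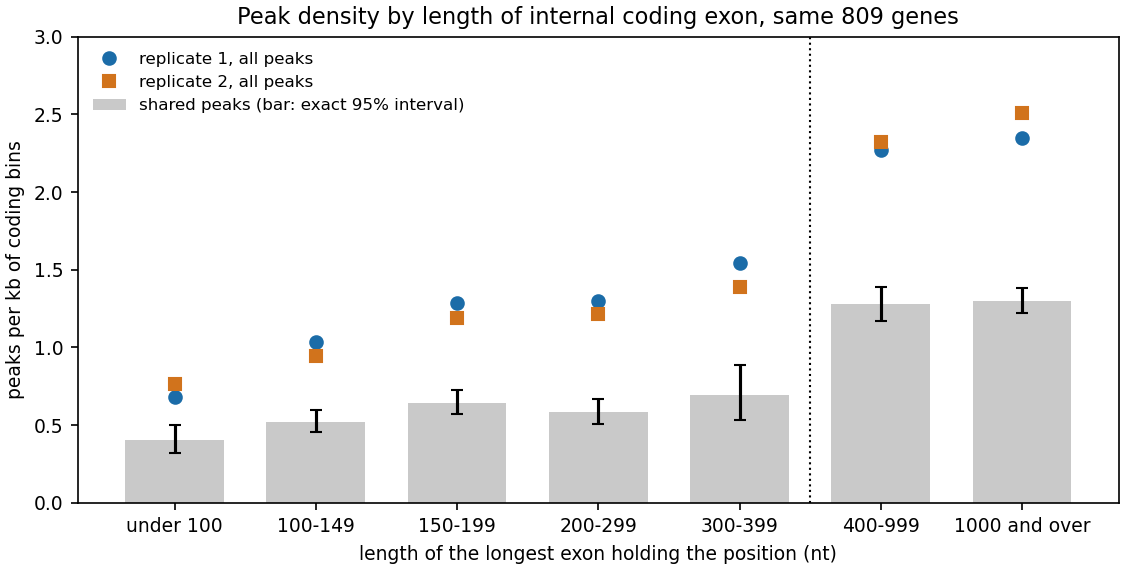
Peaks per kb of coding bins (y axis) by the length of the internal exon (x axis) in the same 809 genes. Bars give shared peaks with exact 95% intervals for counting error, points give all peaks of each library, and the dotted line marks the 400-nt limit. Shared peaks numbered 0.405 to 0.696 per kb below the limit and 1.28 to 1.30 above it.

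The gap between short and long exons also stood in bins at like distances from an exon's end. Over bins more than 50 and up to 100 nt from the nearest end, the density was 0.697 per kb in exons of 100 to 149 nt, 0.793 at 150 to 199 nt, 0.700 at 200 to 299 nt and 0.653 (0.387 to 1.03) at 300 to 399 nt. At the same distances it was 1.25 (0.999 to 1.54) in exons of 400 to 999 nt and 1.00 (0.715 to 1.36) in exons of 1000 nt and over. The classes from 100 to 299 nt lay below the interval of the 400 to 999 nt class, and the intervals of the 300 to 399 nt class and of the longest class overlapped with those on the other side of the limit.

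Within the short internal exons the centres of the 2346 peaks lay a median of 43 nt from the nearest exon end (quartiles 26 and 65 nt), 68 nt from the exon's start (38 and 110 nt) and 80 nt from its end (46.3 and 120 nt). Peaks were nearer to the start than to the end in 56.1% of cases (1311 of 2338, interval 54.0 to 58.1%), against 8668 of 17337 bins of the same exons. The share within 50 nt of an end was 59.8%, beside 58.9% of the bins of the same exons. In internal exons of 120 nt or more that held a short-exon peak, the bins within 50 nt of an end held 914 peaks in 161.14 kb (5.67 per kb) and the bins further inside held 919 in 140.88 kb (6.52 per kb). The ratio was 0.870 (0.793 to 0.954), and 0.830 and 0.843 in all peaks of replicates 1 and 2, each over exons with a peak of that library. Among peaks with at least 10 reads in both libraries it was 0.956, and among those with a p-value of at most 1e-05 in both it was 0.965. No interval was computed for these stronger peaks. All these exons were chosen for holding a peak, so the shares and ratios do not describe exons without one. The next values cover all short internal coding exons of the 809 genes above, with or without a peak. Densities within 50 nt of an end and further inside were 0.485 and 0.697 per kb at 100 to 149 nt. They were 0.543 and 0.793 at 150 to 199 nt, and 0.415 and 0.710 at 200 to 299 nt. In exons of 300 to 399 nt they were 0.717 and 0.686.

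Peaks were sparse in the outermost nucleotides at each end, and more so at the exon's end. Over all short internal coding exons of the member genes, the first 20 nt of an exon held 0.830 shared peaks per kb, the next 20 nt 1.24, and the class of 40 to 59 nt 1.41. Counted back from the exon's end, the last 20 nt held 0.530 per kb, the 20 nt before them 1.00 and the class of 40 to 59 nt 1.23. It was 1.28 per kb at 60 to 79 nt from the end and 1.36 at 80 to 99 nt. All peaks of replicate 1 gave 1.41 per kb in the first 20 nt and 0.939 in the last 20 nt, and all peaks of replicate 2 gave 1.24 and 0.955. Reads had been aligned without gaps, so reads of spliced RNA that ran over a junction had no place in the genome, and the part of this in the sparse ends was not tested.

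**Figure D3:**
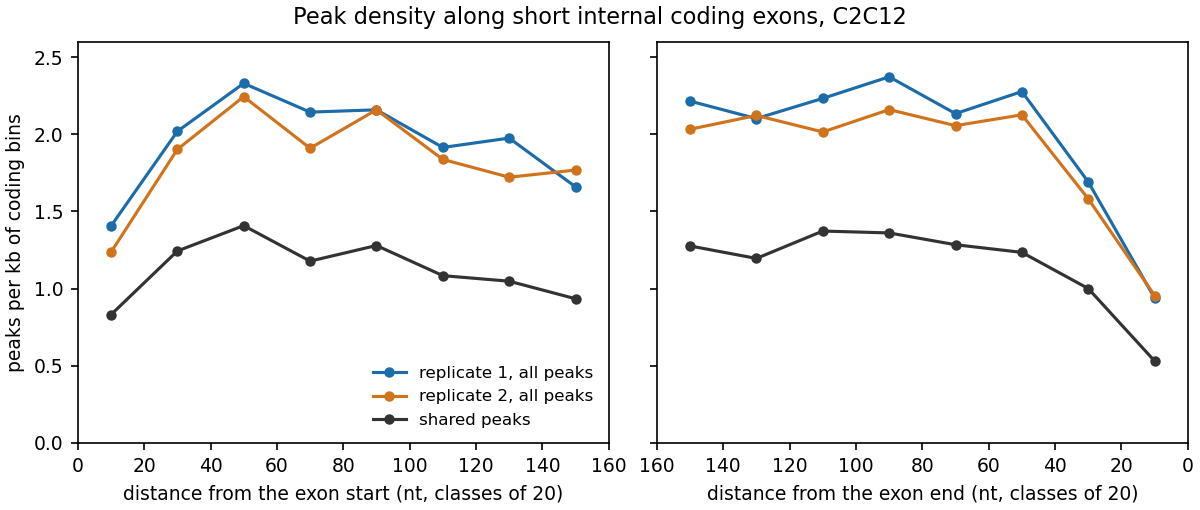
Peaks per kb of coding bins (y axis) in classes of 20 nt from the start (left) and from the end (right) of short internal coding exons of the 1136 member genes, for all peaks of each C2C12 library and for shared peaks. Shared peaks fell to 0.830 per kb in the first class and to 0.530 per kb in the last.

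Of the internal members, 179 (7.63%) had bins that reached over an exon end, 106 over the start and 73 over the end. Bins lie on a fixed 20-nt grid, so a bin can reach over an end without reads in the intron. The share of all bins of these exons that reach over an end was not counted, so 7.63% has no background beside it. Peaks over the start had medians of 9 reads in both replicates, and those over the end or wholly within the exon had medians of 8. At least 10 reads in both libraries were seen for 26.4% (28 of 106, interval 18.3 to 35.9%) of peaks over the start, 15.1% (7.77 to 25.4%) of those over the end and 13.2% (11.8 to 14.6%) of those within the exon. The Gnas peak shown above, in the gene of the stimulatory G protein alpha subunit, had 25 and 23 reads and its centre lay 1 nt from the start of a 131-nt exon. The Vim peak, in a 44-nt exon of the gene of vimentin, an intermediate filament protein, had 23 and 23 reads with its centre 4 nt from the start. The Hspg2 peak had 26 and 20 reads with its centre 5 nt from the start of a 164-nt exon. The highest Fn1 peak lay at the other side, with 16 and 14 reads and its centre 5 nt from the end of a 180-nt exon. Some internal members had another shared peak outside coding sequence next to their exon. It lay in the 200 nt before the exon for 38 and in the 200 nt after it for 33, on either side for 68 (2.90%). The share for other exons was not counted.

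Exons that some annotated protein-coding transcripts skip were not more frequent among members. They held 185 of the 2346 internal peaks (7.89%, interval 6.83 to 9.05%), while they made up 9.94% of all 15305 short internal coding exons of the same genes and 9.16% of their bins. By exon, 170 of the 2092 internal exons with a peak were skipped in a transcript (8.13%, 6.99 to 9.38%). Of all short internal coding exons of these genes, 13.7% held a short-exon peak. Some skipped exons with peaks are named here after their values were seen. Ptprs, a receptor tyrosine phosphatase, held 3 peaks in its 254-nt exon 16. Ddb1, a DNA damage binding protein, held the highest peak of a skipped exon, with 21 and 22 reads in the 164-nt exon 14. Fn1 held 1 peak with 13 and 13 reads in its 270-nt exon 33, the extra domain A exon. The App gene of the amyloid precursor protein held 2 peaks in its 222-nt exon 14. Some genes held peaks in several skipped exons, as Ubr4 in exons 3, 8 and 52. Hspg2 did so in many, among them exons 62, 70, 79 and 87 with 2 peaks each. The skipped exon 48 of Hspg2 held a peak with 14 and 18 reads.

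Genes with a short-exon peak numbered 1136 of the 17929 protein-coding genes that have a short coding exon (6.34%). Of these, 679 held 1 peak, 353 held 2 to 4, 73 held 5 to 9 and 31 held 10 or more. Long-exon peaks were found in 427 of them too, and the other 709 had no shared coding peak in a long exon. Over all genes with a short coding exon there were 0.131 short-exon peaks per kb of it, and over the 1136 genes there were 1.19 per kb.

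The 3 genes with most peaks code for large secreted or surface proteins made of many repeated domains. Lrp1, a large endocytic receptor, held 74 short-exon peaks (119 in all peaks of replicate 1, 115 in all peaks of replicate 2). The 74 lay in 59 of its 82 short coding exons, at 5.81 per kb. Hspg2, the basement membrane proteoglycan perlecan, held 69 (102 and 97) in 60 of 96 exons, at 5.37 per kb. Fn1, the matrix glycoprotein fibronectin, held 68 (85 and 88) in 42 of 44 exons, at 9.86 per kb. The peaks thus ran along nearly the whole coding sequence of Fn1 and over most exons of the other 2 genes. The highest peak of Lrp1 had 13 and 15 reads beside a median of 7.88 over its peaks, that of Hspg2 26 and 20 beside 8.75, and that of Fn1 16 and 14 beside 9.21. In Fn1 a single long exon of 467 nt held 8 further peaks, while the most in a short exon was 3. These counts are not divided by length: the long exon had 23 coding bins, and the short exons with 3 peaks had 8 to 14.

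**Figure D4:**
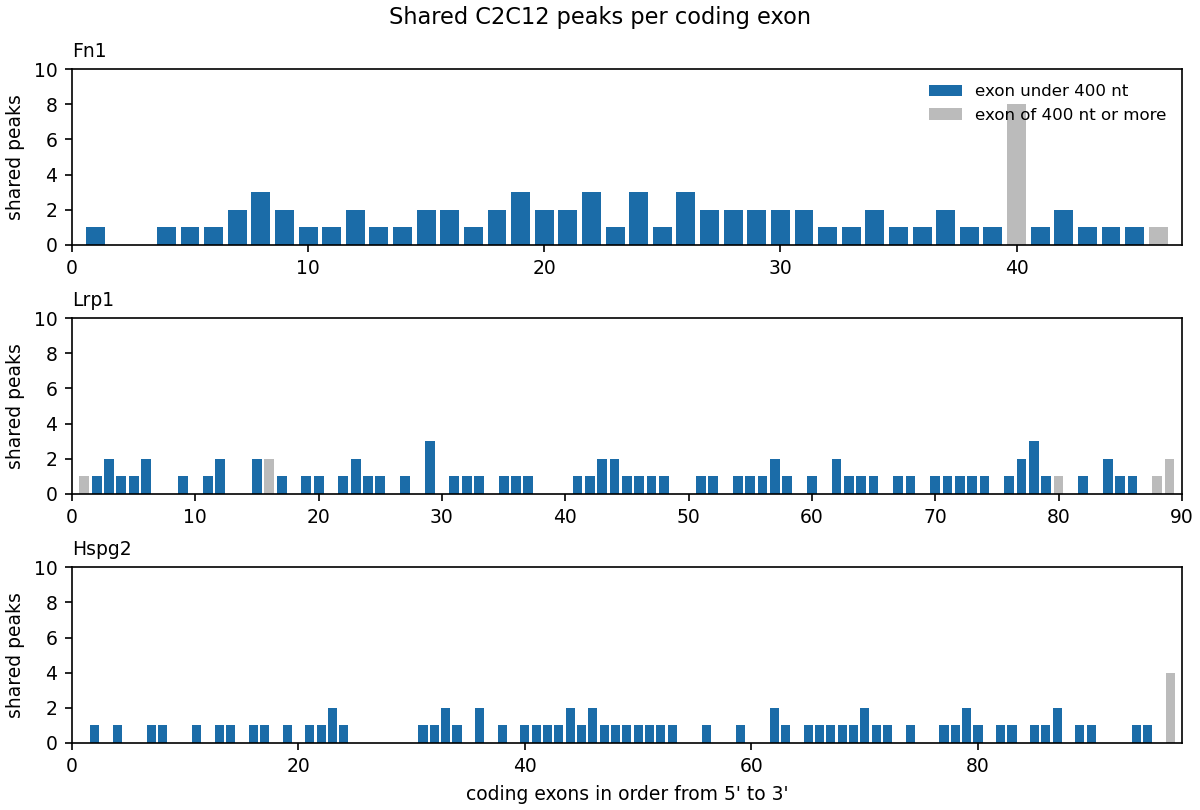
Shared C2C12 peaks (y axis) in each coding exon of Fn1, Lrp1 and Hspg2, in order from the 5′ to the 3′ end of the gene (x axis), with exons under 400 nt in blue and longer ones in grey. Peaks in short exons were 1 to 3 per exon and were found in 42 of 44 short coding exons of Fn1, 59 of 82 of Lrp1 and 60 of 96 of Hspg2.

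The genes that followed by number of peaks are given here with their densities. Flna, a filamin that crosslinks actin, held 34 peaks (56 and 47 in single libraries), at 5.70 per kb. Col3a1, a fibrillar collagen, held 26 (35 and 35) in 22 of 48 exons at 6.47 per kb. Myh9, a non-muscle myosin heavy chain, held 25 (38 and 37) at 5.06 per kb. Plec, the cytoskeletal linker plectin, also held 25 (34 and 32) at 5.53 per kb, beside 66 long-exon peaks. Ubr4, an E3 ubiquitin ligase, held 22 (42 and 35) in 20 of 102 exons, at 1.50 per kb. Eef2, the translation elongation factor that moves the ribosome, held 20 (27 and 27) in all 12 of its short coding exons, at 8.26 per kb. The order by number was therefore not the order by density: Ubr4 held more peaks than Eef2, at a density near the 1.19 per kb of all genes with a peak.

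**Figure D5:**
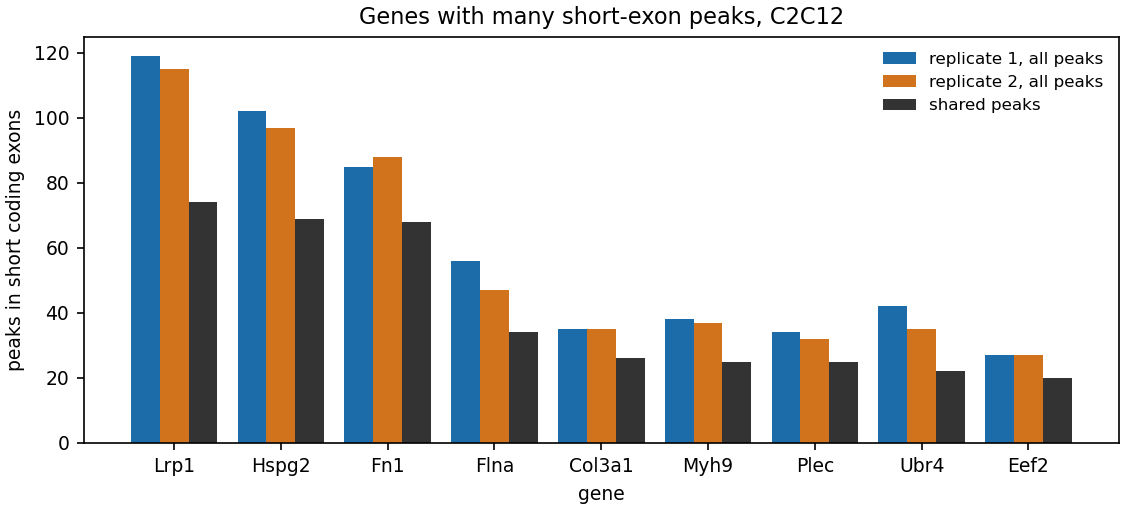
Number of peaks in short coding exons (y axis) for 9 of the 10 genes with most short-exon peaks (x axis), as all peaks of replicate 1, all peaks of replicate 2 and shared peaks. Both libraries gave similar counts in every gene (56 and 47 in Flna, 42 and 35 in Ubr4), and shared peaks ran from 20 in Eef2 to 74 in Lrp1.

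By density among genes with at least 4 peaks, Tuba1c led with 16.7 per kb (6 peaks), then Gm10222 with 13.3 (4), Rplp1 with 12.5 (4), Spp1 with 12 (6) and Vim with 11.9 (10). Much of this rests on sequence that the genome holds more than once: no peak of the alpha-tubulin gene Tuba1c and of Gm10222, and 1 of the 4 of the ribosomal stalk protein gene Rplp1, had a central 20-nt sequence that occurs once. In Spp1, the gene of the secreted phosphoprotein osteopontin, all 6 occurred once, and in Vim 9 of 10 did. Over all short-exon peaks 2305 (85.2%) had a central sequence that occurs once, against 79.5% of long-exon peaks, a difference of 5.67 percentage points (3.93 to 7.36). Sequences that occur over 10 times were at the centre of 47 short-exon peaks, 7 members lay on mitochondrial genes, and 38 in 23 genes with only a Gm number.

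The highest peak of all was in Psap, the precursor of the lysosomal saposins, with 28 and 22 reads, 24 nt from the start of a 280-nt exon. Eno1, a glycolytic enolase, followed with 25 and 24 reads, in a sequence that occurs 8 times in the genome. Next to Gnas with 25 and 23 reads stood Sfswap, a splicing regulator, with 26 and 22 reads in its 366-nt first exon, whose sequence heads the first set above. Ahnak, a very large scaffold protein, had 23 and 23 reads in its 188-nt exon 4, where the same mean of 23 was also reached by Hspg2, Rpl19 and Vim. Apart from Eno1 and Rpl19 (9 copies), these peaks were in sequences that occur once.

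The exon with most peaks was exon 3 of Lgals3, the gene of the carbohydrate-binding protein galectin-3, with 5 peaks in 366 nt. Their reads ran from 8 to 16 in replicate 1 and from 7.5 to 17 in replicate 2, and the highest, shown above, had its centre 3 nt from the exon's start. Exon 2 of Sfr1, a DNA repair factor, held 4 peaks in 359 nt. Peaks A to D of Sfr1 had 13, 13, 13 and 17 reads in replicate 1 and 14, 11, 14 and 16 in replicate 2. All of them held the same 15-nt stretch, CGACTTCACCTGCCG, and the central 20 nt of peaks A, B and D occur once in the genome while that of peak C occurs 4 times. The remaining exons with 4 peaks were in Tuba1c, Gm10800 and Gm10222, whose centres occur at least 2 times, and up to 127 times in Gm10800.

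Of 13 lists of related genes, those for matrix, cytoskeleton and translation held most members. Beside the 6.34% of all genes, 15 of 20 matrix glycoprotein genes held a short-exon peak, with 220 peaks at 2.18 per kb, led by Hspg2, Fn1 and the basement membrane linker Nid1 (20). Among collagens 10 of 16 did, with 86 peaks at 1.37 per kb, and after Col3a1 came Col1a2 with 16 and Col5a1 with 12. Among cytoskeletal linkers 12 of 16 did, with 151 peaks at 1.05 per kb, led by Flna and Plec. Among myosins, actins and their partners 12 of 16 did, with 48 peaks, of which Myh9 held 25 and Myo10 4. Translation factors had 11 of 18 with 45 peaks at 1.53 per kb, where Eif4g1, a scaffold of translation initiation, held 7 and the poly(A)-binding protein Pabpc1 4 after Eef2. Ribosomal protein genes had 12 of 21 with 38 peaks at 3.88 per kb, led by Rplp0 with 9, Rpl8 with 7 and Rpl4 with 6. Chaperones had 11 of 13 with 31 peaks at 1.65 per kb, led by Hsp90ab1 with 8 and Hsp90b1 with 7. Part of these counts rests on sequence that the genome holds more than once. The central 20 nt occurred once for 1 of 9 peaks in Rplp0, 5 of 7 in Rpl8 and 5 of 6 in Rpl4. It did so for 12 of 20 in Eef2, 6 of 7 in Eif4g1, 0 of 4 in Pabpc1, 4 of 8 in Hsp90ab1 and 7 of 7 in Hsp90b1. The lists were chosen with earlier results of these data known, so their shares beside that of all genes are a description only. Levels of these mRNAs were not measured here. The part of levels, and of the amount of short coding sequence per gene, in the shares and counts was not tested.

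The remaining lists were read against the same background, 6.34% of genes and 0.131 peaks per kb. Among SR splicing factors, which bind exons and of which some are known partners of YTHDC1, 2 of 14 genes (14.3%) held a peak, Srrm2 with 2 and Srsf6 with 1, at 0.289 per kb. Among hnRNPs 8 of 18 (44.4%) did, with 14 peaks at 0.701 per kb, and Hnrnpa1, Pcbp2 and Ptbp1 held 3 each. Of 16 m6A writer, eraser and reader genes only Fto, which codes for a demethylase, held a short-exon peak, with 6 and 7 reads (6.25% of the list, near the background). Of 14 mRNA export genes only Tpr, a nuclear pore protein, did, with 4 peaks (7.14%, also near it). Of 19 cell cycle genes 6 did, with 10 peaks, 3 of them in the proliferation marker Mki67 and 3 in the topoisomerase Top2a, and Ccnd1 and Cdk4 held 1 each. Of 11 myogenic factors the 2 with a peak were Mef2d, with 8 and 8 reads, and Tcf4, with 7 and 8 reads. The density was 0.0667 per kb for the m6A genes, 0.114 for the export genes, 0.386 for the cell cycle genes and 0.243 for the myogenic factors. Short coding sequence came to 15 kb for the m6A genes, 10.4 kb for the SR genes and 35.1 kb for the export genes. It came to 101 kb for the matrix glycoproteins and 9.8 kb for the ribosomal protein genes.

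GGAC, the core of a common m6A site, was searched on the RNA strand in 60 nt around each peak's centre. It was found at 23.9% of short-exon peaks (interval 22.3 to 25.6%), at 22.5% of long-exon peaks and at 25.5% of all bins of the same short exons, of the same length. The difference between short-exon and long-exon peaks was 1.44 percentage points (-0.50 to 3.42). The wider m6A consensus, in which AC follows A or G preceded by A, G or T and is followed by A, C or T, was found at 64.2% of short-exon peaks, 62.3% of long-exon peaks and 66.9% of the bins of the same short exons. Neither was thus more frequent at the peaks than in the exons around them. The purine-rich word GAAGAA was found at 2.59% (2.02 to 3.26%) of members against 3.86% of bins of the same exons, and TTTT at 10.5% against 11.2%.

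All 1024 words of 5 bases were then counted, and those named here were chosen after their values were seen. Against the bins of the same short exons with no peak nearby, 453 words were more frequent at short-exon peaks. ATGCC had 17.8% (16.4 to 19.3%) of members against 6.72% of those bins and 10.7% of all bins of the same exons, and in single libraries it was found at 15.5% of peaks of replicate 1 and 16.1% of those of replicate 2. TGCCT, which shares 4 bases with it, was found at 18.9% against 9.0%, and CTGCC at 19.8% against 12.8%. Long-exon peaks held ATGCC in 15.5%, against 6.87% of the bins of long exons, and the difference between short-exon and long-exon peaks was 2.28 percentage points (0.57 to 4.04). Words rich in A and G were less frequent, as AGAAG with 9.50% against 15.3% and AAGAA with 6.54% against 11.9%. In the central 20 nt of the peaks C made up 31.1% and A 21.1% of the bases, against 26.2% and 25.3% in bins without a peak. LACE-seq includes a linker ligation, reverse transcription and tailing of cDNAs, and the part of these steps in the words was not tested.

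Few short-exon peaks were found again in activated satellite cells. Of the 2705 peaks, 172 (6.36%, interval 5.47 to 7.34%) overlapped a peak of at least 1 ASC-48 hr library, beside 14.5% of all shared C2C12 peaks. Over all short-exon peaks of a single C2C12 library the share was 3.95% in replicate 1 and 4.31% in replicate 2. The libraries B1T1, B1T2, B2T1 and B2T2 held 22, 75, 46 and 88 of them, in lists of 8115, 10759, 7925 and 19448 peaks, against 60540 and 71992 in C2C12. Long-exon peaks were found in 8.38% of cases, a difference of -2.02 percentage points (-3.18 to -0.81). Among peaks whose central sequence occurs once the shares were 3.73% and 3.87%, and the difference was -0.14 (-1.07 to 0.87). The 4 libraries are 2 biological samples (B1 and B2) with 2 technical replicates each (T1 and T2), so a pair of them can be repeats of 1 sample. At least 2 ASC libraries held 44 short-exon peaks, and all 4 held 3. Of these, 2 were in the histone H4 genes Hist1h4f, with 8 and 8 reads in C2C12, and Hist1h4k, with 7.67 and 8.33, both in sequences that occur 9 times. The other was in Rplp1, with 11.7 and 9.50 reads, in a sequence that occurs 2 times. The ASC lists were shorter, so a peak missing from them may not have been detectable at their depth, and no test between cell types was made.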

How the data were processed

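YTHDC1 LACE-seq was measured in 2 C2C12 and 4 ASC-48 hr libraries of mouse cells. Per the labels and methods, adapters were trimmed with cutadapt 1.15 (reads of at least 18 nt), and reads were aligned to mm9 with Bowtie 1.2.3, without gaps, with up to 2 mismatches and up to 10 positions per read. Piranha then called peaks in 20-nt bins at a p-value of 0.001, which the methods state for ASC. Whether duplicates were removed is not given in the sources used here. The authors deposited 1 peak list per library, with a signal per peak (the mean reads per bin, never negative) and Piranha's p-value. Library depth is unknown, since the lists hold only bins past the threshold: the peaks of replicates 1 and 2 held 523067 and 607366 reads. The highest p-value listed was 0.000641 in replicate 1 and 0.000714 in replicate 2.

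Peaks were read from the lists as deposited. The strand column names the strand opposite to the RNA, so a peak was assigned to genes of the other strand, and 21 shared peaks lay on the other strand of a short coding exon. Exons and coding sequence came from GENCODE vM1 on NCBIM37, the build of the files, and an exon's length was that of its gene's longest exon holding the centre. Densities are peak centres per kb of 20-nt coding bins. An internal exon counted as skipped where a protein-coding transcript of the gene had an intron over all of it. Shares carry 95% exact Clopper-Pearson intervals, differences Newcombe intervals and ratios exact Poisson intervals, all for counting error over peaks, which are not replicates. No test between conditions was made. Copies are occurrences of the central 20 nt in the genome on both strands. Words were searched in 60 nt around the centre on the RNA strand.

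Genes named are the 10 with most short-exon peaks, those of the 5 highest peaks and of the 5 exons with most peaks, the 5 with most peaks per kb among those with at least 4, and up to 3 of each of 13 gene lists, with ties by mean reads and then symbol. Of the 10 genes with most peaks, 1 is not reported here. The members, lists and this rule were chosen with earlier results of these data known. The functions for overlap, exon position and copies passed 10 of 10 checks on 6000 simulated peaks. Python 3.11.15, pandas 2.3.3, scipy 1.17.1, pysam 0.24.0 and samtools 1.23.1 were used. Of the members, 43 on chromosome 18 are counted without printed sequence. For 9 results, 11 alternatives were tried.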

Additional observations from a re-analysis of the deposited data

How the results depend on the processing

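Under the alternatives to the settings above, the main ratios stayed on the same side of 1. Of the varied values, 51 stayed within 1.5 times (counts), within the spread between replicates (other values) or within the 95% interval of the main value (correlation). The remaining 46 moved beyond these limits. The number of short-exon peaks (2705) was 350 with a p-value of at most 1e-05 in both libraries, 387 with at least 10 reads in both, and 5498 to 5945 with either replicate left out. The number of genes (1136) was 227, 240 and 2050 to 2166. These counts differ by construction, as fewer or more peaks pass. The share of shared peaks in short coding exons (9.30%) was 7.66% with at least 10 reads, 13.3% where the 20-nt sequence occurs once, and 7.64 to 9.82% with a replicate left out. The ratio of density near exon ends to that inside, over exons that held a counted peak, was 0.870. It was 0.965 at the lower p-value and 0.956 with at least 10 reads. No interval was computed for these, so whether the ratio lay below 1 among the stronger peaks was not resolved. It was 0.817 for exons under 300 nt and 0.909 for exons under 500 nt. For the peak with most reads of each exon it was 0.892, and without a replicate 0.830 to 0.843. The ratio of short to long exons (0.436) was 0.499 and 0.378 for limits of 300 and 500 nt, 0.397 to 0.450 without a replicate, 0.349 with each gene compared with itself, and 0.923 for the peak with most reads of each exon, which leaves a long exon with 1 peak by construction. The GGAC share (23.9%) was 20.9% at the lower p-value, 21.2% with at least 10 reads and 24.6% where the sequence occurs once. The share in skipped exons (7.28%) was 5.71%, 5.68% and 8.20% under the same settings, 7.73% and 6.96% for limits of 300 and 500 nt, 7.43% for exons of protein-coding transcripts, 7.61% for 1 peak per exon and 7.59 to 7.62% without a replicate. The share found in an ASC library (6.36%) was 8.57%, 9.82% and 3.73% under those settings, 6.78% counted from replicate 2, 5.5% and 8.20% for limits of 300 and 500 nt, 6.77% for exons of protein-coding transcripts, 5.65% for 1 peak per exon and 3.95 to 4.31% without a replicate. The correlation of replicates (0.49) was 0.52 at the lower p-value. Beyond what follows by construction, the cause was not tested. The share of shared peaks could not be given with 1 peak per exon, nor the correlation without a replicate. No paired analysis was possible because no result comes from a test between groups and the replicate numbers of C2C12 and ASC-48 hr name unrelated cells.

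Among the limits, the median of 8 reads lies close to the lowest listed value of 6, no background library was used here, and less RNA of a gene and less binding cannot be told apart.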
